A study of Mus musculus with 2 samples.

Results

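The 44 genes described here act in G2 and mitosis, the last stretch of the cell cycle. They are a list of names, with no threshold on a measured value, drawn up when earlier results of these data were known. Of 31053 genes in the matrix these 44 were used, and 44 of 44 were found. All passed the minimum of 10 unique molecular identifiers (UMIs, 1 per captured transcript). By role they comprise a cyclin-CDK group of 6, 6 mitotic kinases and checkpoint genes, 3 of the chromosomal passenger complex, 7 of the centromere and kinetochore, 10 of the spindle, 4 of cytokinesis, 5 of chromatin and the nuclear envelope, and 3 of the ubiquitin ligase route.

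The cells came from mouse small intestinal organoids, epithelial cultures that hold crypt stem cells and their descendants. The study has 1 control and 1 melatonin-treated library, each of cells pooled from 3 organoid lines on day 3 of culture, and the labels used here give no dose, duration, strain or age. A comparison of the deposited files of the 2 samples found 3 of 3 byte for byte identical, so there is a single matrix, whose barcodes carry the suffix 1 or 2. Neither the labels nor the headers tie a suffix to a treatment. Barcodes of suffix 1 are called set 1 and those of suffix 2 set 2, by suffix alone and not by any library name. No control-to-melatonin comparison was made, ratios of set 2 over set 1 have an arbitrary direction, and without replicates no test was run. The 95% intervals of levels cover counting error only, and those of shares and medians over cells treat the cells of a set as independent draws.

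A barcode was used as a cell if 500 genes and 1000 UMIs or more were found in it and no more than 20% of its UMIs were mitochondrial, which kept 2300 of 12364 in set 1 and 1766 of 9442 in set 2. These cells held 61628537 and 51111519 UMIs, with medians of 29872 and 28759 per cell. Some barcode sequences, 29 in all, occurred with both suffixes, and 0 of them were kept in both sets. Markers of immune cells (Ptprc, Cd3e, Cd79a, Lyz2, Cd74) summed to 90 UMIs in set 1 and 63 in set 2, with 1 and 2 of 5 genes at 0, and 5 mesenchymal markers summed to 13 and 7.

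As background, the genes of this group are switched on late in the cell cycle, largely by the MuvB complex with B-MYB and FOXM1, and are repressed in resting cells by the related DREAM complex. Their products condense and hold chromosomes, build the spindle, attach kinetochores and split the cell, and many are then destroyed by the anaphase-promoting complex. In the intestine, division takes place in the crypt, whereas enterocytes and hormone-secreting enteroendocrine cells have left the cycle.

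MuvB complexes bind DNA through short letters known as the cell cycle homology region, often near a CCAAT box, the site of the factor NF-Y. RefSeq promoter windows (GRCm38.p6, 250 bases before to 50 after a start) were found for 38 of the 44 members, 42 windows in all. The letters TTTGAA, read on both strands, stood in 28 of 42 windows (66.7%) and in 17.9% of all 32851 windows. The palindrome TTTAAA stood in 12 (28.6%) and in 13.2% of all windows. The CCAAT letters were found in 33 (78.6%) against 37.4%, and GGGCGG, the letters of a GC box, in 31 (73.8%) against 35.7%. A window with both TTTGAA and CCAAT occurred 23 times (54.8%), against 6.95% of all windows. A match is a description of letters and not a bound site.

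The 120 bases before the start are printed for 7 members on which the results below turn, 5′ to 3′ on the gene's strand, with these motifs in capitals on either strand (in reverse, TTTGAA reads TTCAAA, the CCAAT box reads ATTGG, and the GC box letters read CCGCCC). Cdk1 lies at chr10:69352913-69353032 (minus strand), Ube2c at chr2:164769809-164769928 (plus), Hmgb2 at chr8:57511723-57511842 (plus), Cdc20 at chr4:118437344-118437463 (minus), Ccnb1 at chr13:100786487-100786606 (minus), Top2a at chr11:99024190-99024309 (minus) and Hjurp at chr1:88277580-88277699 (minus), all upstream of the first exon.
Cdk1: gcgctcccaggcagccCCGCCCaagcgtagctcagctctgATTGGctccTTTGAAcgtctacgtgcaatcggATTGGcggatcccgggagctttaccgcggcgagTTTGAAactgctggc
Ube2c: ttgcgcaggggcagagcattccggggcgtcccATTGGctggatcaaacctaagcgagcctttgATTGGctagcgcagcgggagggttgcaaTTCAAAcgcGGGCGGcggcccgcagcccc
Hmgb2: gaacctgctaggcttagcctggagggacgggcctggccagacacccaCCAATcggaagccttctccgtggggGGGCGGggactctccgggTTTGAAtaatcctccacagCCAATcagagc
Cdc20: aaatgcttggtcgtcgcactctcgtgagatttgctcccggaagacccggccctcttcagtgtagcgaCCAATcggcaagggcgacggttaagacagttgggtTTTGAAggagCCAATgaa
Ccnb1: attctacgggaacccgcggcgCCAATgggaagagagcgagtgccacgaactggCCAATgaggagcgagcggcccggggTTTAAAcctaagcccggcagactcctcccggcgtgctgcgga
Top2a: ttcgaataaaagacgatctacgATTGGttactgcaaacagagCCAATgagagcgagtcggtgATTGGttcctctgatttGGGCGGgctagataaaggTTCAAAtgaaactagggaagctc
Hjurp: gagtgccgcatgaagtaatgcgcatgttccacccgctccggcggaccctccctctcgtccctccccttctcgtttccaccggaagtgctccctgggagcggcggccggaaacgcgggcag
The first 4 and Top2a hold TTTGAA within 71 bases before the start, at 15 and 71 bases in Cdk1, 29 in Ube2c, 30 in Hmgb2, 18 in Cdc20 and 23 in Top2a. Ccnb1 holds the TTTAAA form at 42 bases. In this stretch Hjurp holds none of the 4 motifs, although its full window has both TTTGAA and CCAAT. Hjurp differs from the other printed members by cell type, as described below, and a link between that and these letters was not tested. Birc5, Nuf2, Nusap1 and Tacc3 hold neither TTTGAA nor CCAAT in their windows and do not share Hjurp's pattern by cell type.

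Summed over the 44 genes, set 1 held 318562 UMIs, or 5169 CPM (counts scaled to a total of 1000000 UMIs, interval 5151 to 5187), and set 2 held 191304, or 3743 CPM (3726 to 3760). The sum was 1.38-fold lower in set 2, a log2 ratio of -0.47. Of the members, 42 had intervals that did not overlap and a lower level in set 2, Psrc1 was higher in set 2, and Gtse1 had overlapping intervals. At these depths small differences separate the intervals: of all 15474 genes 12.2% lay apart and lower in set 2 and 20.9% apart and higher, and of those at 10 CPM or more 18.1% and 31.9%. The median member had a log2 ratio of -0.37, with a range from -0.77 to 0.34, and the median of all 15474 genes was 0.03. At least 1.5-fold lower in set 2 were 6 members, Nusap1, Ube2c, Cenpa, Bub1b, Cdca8 and Cks2, and 0 were as much higher. With no mitochondrial limit only Nusap1 was, with a pseudocount of 10 CPM 3 members were, and without likely doublets 9. Of all genes 1.4% were that much lower and 2.46% that much higher. Among the 7357 genes at 10 CPM or more, 0.843% were that much lower.

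**Figure D1:**
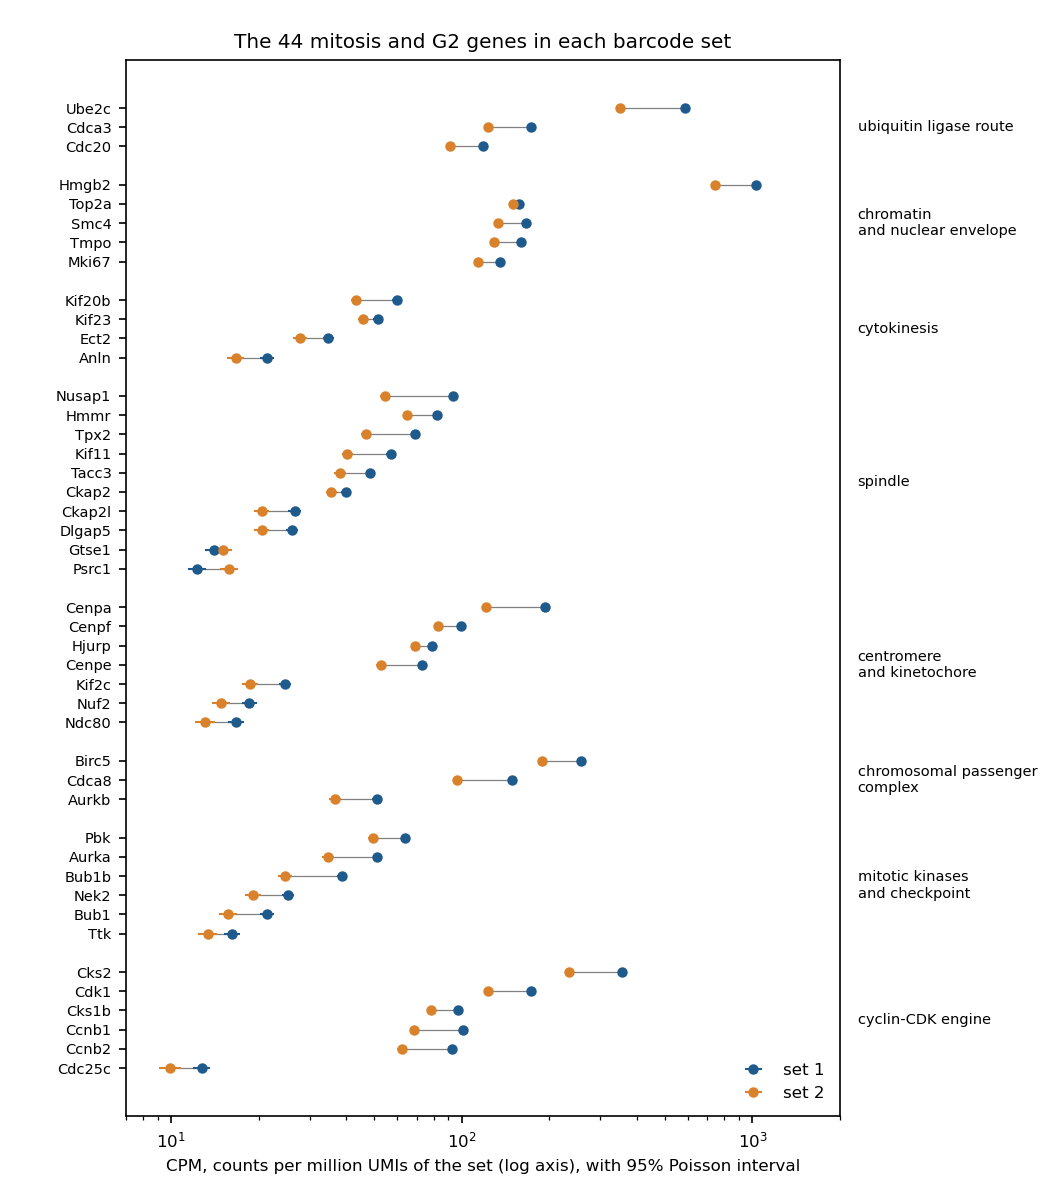
Level of each of the 44 genes in set 1 and set 2, in CPM on a log axis, grouped by role; bars are 95% Poisson intervals and lines join the values of a gene. Set 2 lies to the left of set 1 for 42 genes, and Gtse1 and Psrc1 in the spindle group are the exceptions.

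The cyclin-CDK group holds the kinase that starts mitosis (Cdk1), its cyclins Ccnb1 and Ccnb2, the small CDK subunits Cks1b and Cks2, and the activating phosphatase Cdc25c. Its sum was 831 CPM in set 1 and 576 CPM in set 2, 1.44-fold lower, and 6 of 6 genes were lower in set 2. Cks2 was at 355 CPM (350 to 360) and 234 CPM (230 to 239), the lowest ratio of the group (-0.60). Cks1b, at 96.8 and 78.2 CPM, had the highest (-0.30). Cdk1 itself was at 173 and 123 CPM. Cdc25c was among the 3 least abundant members, at 12.7 CPM (11.9 to 13.7) and 9.92 CPM (9.07 to 10.8). UMIs of Cks2 and Ccnb1 are uncertain: 20.5% and 30.1% of the 60-base words in the last 400 bases of their transcripts also occur in transcripts of other genes, mainly copies such as Gm15452 and Ccnb1-ps.

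The group of mitotic kinases and checkpoint genes holds Bub1, Bub1b and Ttk, which delay anaphase until chromosomes are attached, Aurka and Nek2, which act at the spindle poles, and Pbk, a kinase of dividing cells. Together they had 217 CPM in set 1 and 157 CPM in set 2, and 6 of 6 were lower in set 2. Bub1b, a subunit of the checkpoint complex, was at 38.8 CPM (37.2 to 40.4) and 24.7 CPM (23.3 to 26.1), 1.57-fold lower. Ttk, the kinase that starts the checkpoint, was at 16.3 and 13.4 CPM, 1.22-fold lower.

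The chromosomal passenger complex, which corrects faulty attachments, is represented by its kinase Aurkb and the subunits Birc5 (survivin) and Cdca8 (borealin). Cdca8 was at 149 CPM (146 to 152) against 96.3 CPM (93.6 to 99.0) in sets 1 and 2, 1.54-fold lower. Birc5 was at 256 and 188 CPM, 1.36-fold lower, and Aurkb at 50.9 and 36.7 CPM, 1.39-fold lower. The 3 genes of this complex were thus all lower in set 2, by 1.36- to 1.54-fold, and of them only Cdca8 was past 1.5-fold.

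At the centromere and kinetochore, Cenpa is the histone variant that marks the centromere and Hjurp is its loading chaperone, while Cenpe, Cenpf, Kif2c, Ndc80 and Nuf2 act where the kinetochore meets microtubules. Cenpa was at 193 CPM (189 to 196) against 121 CPM (118 to 124) in sets 1 and 2, 1.59-fold lower. Hjurp was at 79.2 CPM (77.0 to 81.4) and 69.2 CPM (66.9 to 71.5), 1.14-fold lower, the ratio nearest to no difference in this group. The other 5 genes lay between, at 1.20-fold (Cenpf) to 1.38-fold (Cenpe) lower. A histone variant and its own chaperone therefore stood at opposite ends of the group.

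The spindle genes are the motor Kif11 and the microtubule-associated Tpx2, Nusap1, Hmmr, Tacc3, Ckap2, Ckap2l, Dlgap5, Gtse1 and Psrc1. Nusap1, which bundles spindle microtubules, was at 93.0 CPM (90.6 to 95.5) against 54.3 CPM (52.3 to 56.4) in sets 1 and 2, the lowest ratio of all 44 genes (1.71-fold lower). Psrc1 was at 12.3 CPM (11.4 to 13.2) and 15.8 CPM (14.8 to 17.0), and Gtse1 at 14.0 and 15.1 CPM, with overlapping intervals. These were the only 2 members with a higher value in set 2, and both are among the 3 least abundant. The remaining 8 spindle genes were lower in set 2, from 1.12-fold (Ckap2) to 1.71-fold.

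The cytokinesis genes Anln, Ect2, Kif20b and Kif23, which position and close the cleavage furrow, had the smallest difference in sum of the groups, 167 against 133 CPM (1.25-fold lower). Kif20b was 1.38-fold lower in set 2 and Kif23 1.12-fold lower. Chromatin and nuclear envelope genes were the most abundant, with 1647 and 1267 CPM. Hmgb2, a DNA-bending chromatin protein, was the highest member at 1027 CPM (1020 to 1036) and 741 CPM (733 to 748). Top2a, the topoisomerase that untangles sister chromatids, was at 157 CPM (154 to 160) and 150 CPM (147 to 153), 1.05-fold lower. Smc4 (condensin), Mki67 (the Ki-67 antigen) and Tmpo (a lamina-associated protein) were 1.25-, 1.19- and 1.23-fold lower. For Hmgb2, 35.0% of its 3′ words also occur in other transcripts such as Gm4739, so its level is uncertain.

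In the ubiquitin ligase route, Ube2c charges the anaphase-promoting complex with ubiquitin, Cdc20 activates that complex, and Cdca3 serves another ubiquitin ligase. This group had the largest fold difference in sum, 1.56-fold lower in set 2, at 879 against 563 CPM. Ube2c alone was at 587 CPM (581 to 593) and 350 CPM (345 to 355), 1.68-fold lower. Cdc20 was at 118 and 90.9 CPM, 1.30-fold lower, and Cdca3 at 173 and 123 CPM. Hmgb2, Ube2c and Cks2 made up 38.1% of the member UMIs of set 1 and 35.4% of those of set 2. No single gene rested on few cells: the 3 cells with the most UMIs of a member held at most 2.04% of its UMIs in set 1 and 4.34% in set 2.

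Other lists were set beside the members. Of 53 other mitosis genes, 2 (Pimreg, at only 1.75 and 0.646 CPM, and H2afx) were at least 1.5-fold lower in set 2 and 0 higher, with a median log2 ratio of -0.36. Plk1, the kinase that drives mitotic entry, was at 65.1 and 44.7 CPM. Of 40 S phase genes, which serve DNA replication, 0 were that much lower and 3 were higher (Cdc6 at 4.20 and 9.00 CPM, Ung at 7.32 and 14.1 CPM, Ccne2 at 4.87 and 9.16 CPM), with a median of 0.17. Of 37 regulators of the cell cycle, 0 were lower and 3 higher (E2f1, Cdkn2b and Cdkn2a, the last at only 0.162 and 0.900 CPM), with a median of -0.03. Of all genes 1.4% were that much lower and 2.46% that much higher. Among genes at 10 CPM or more, 1 of 44 other mitosis genes was lower, and 1 of 36 S phase genes and 2 of 32 regulators were higher. Foxm1 was at 14.1 CPM (13.2 to 15.1) and 11.3 CPM (10.4 to 12.3), and Mybl2, which encodes B-MYB, at 10.0 and 11.2 CPM.

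The sum was then taken per cell, in cells classed by summed markers per 10000 UMIs. Cells with at least 5 from Lgr5, Olfm4, Ascl2, Smoc2, Axin2 and Slc12a2 that passed no other gate are called crypt-gated. The enteroendocrine gate asked for 50 from Chga, Chgb, Neurod1 and 7 others, and the enterocyte gate for 100 from Alpi, Apoa1, Fabp1 and 7 others. A gate of 2 was set on Neurog3, a factor of enteroendocrine progenitors, and cells past no gate lie between gates. Cells past the Neurog3 gate and none of the enterocyte, goblet, Paneth, tuft and revival-like gates formed a class of their own. The enteroendocrine gate, from which they were taken out, was also passed by 68 of the 79 in set 1 and 52 of the 58 in set 2. A gate is a range and not a cell type. Leading genes of each gate include its markers (Lgr5, Slc12a2 and Smoc2 for the crypt gate, Chga with the hormone genes Gcg, Cck and Pyy for the enteroendocrine gate, Lct, Apoa1 and Fabp1 for the enterocyte gate). The crypt gate's 10 leading genes also include 4 members, Kif20b, Kif11, Cenpe and Cenpf. Cells past a gate on Paneth markers were led by Sst and Dlk1 and not by Paneth genes, so they are not described.

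Crypt-gated cells had the highest sums among the gates with 50 cells or more in each set. In set 1, 1143 such cells had a median of 60.4 member UMIs per 10000 (quartiles 44.2 and 75.5), and in set 2, 818 had 48.6 (18.6 and 68.8). The upper quartiles differ less than the lower ones: a larger share of the crypt-gated cells of set 2 had few member UMIs. Cells with at least 32 per 10000, a threshold chosen after the values were seen, made up 86.7% of crypt-gated cells in set 1 (84.6% to 88.6%) and 63.8% in set 2 (60.4% to 67.1%). Between 24 and 40 per 10000, near that threshold, lay 101 and 88 of them. Over all cells these shares were 65.8% and 43.3%.

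Cells between gates had medians of 49.3 (643 cells of set 1) and 30.5 (401 of set 2). The Neurog3 gate had medians of 7.26 (79 cells) and 5.24 (58 cells), with upper quartiles of 9.15 and 7.11. Enteroendocrine-gated cells had 6.50 (145 cells, quartiles 5.06 and 8.97) and 3.74 (193 cells, 2.58 and 5.35). The Neurog3-gated cells also carried enteroendocrine markers, with medians of 459 and 525 per 10000 against 601 and 412 in the enteroendocrine gate. The 5 and 2 Neurog3-gated cells at 32 member UMIs per 10000 or more had medians of 0 and 0.79 for these markers. Enterocyte-gated cells had 4.22 (127 cells, quartiles 2.84 and 19.3) and 2.86 (182 cells, 1.94 and 3.61). The upper quartile of set 1 shows that part of its enterocyte-gated cells carried members at a higher level. These enterocyte medians depend on the limits: they were 31.7 and 5.10 at a mitochondrial limit of 10%, and 17.9 and 3.22 with all gates lowered.

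**Figure D2:**
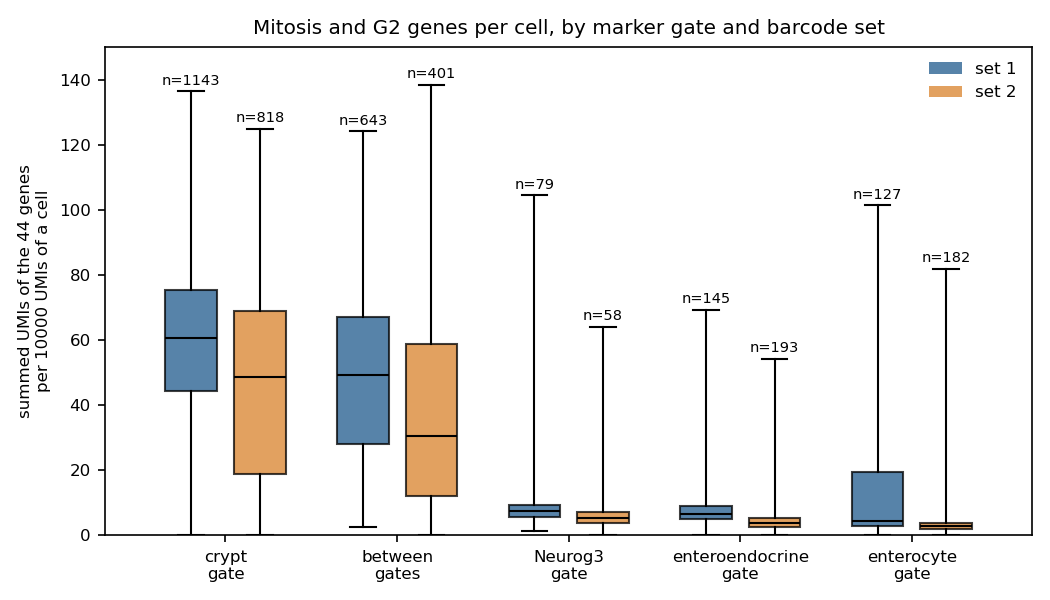
Summed UMIs of the 44 genes per 10000 UMIs of a cell, by marker gate and set; boxes give the quartiles and median over cells, whiskers the lowest and highest cell, and n the number of cells. Crypt-gated cells have medians of 60.4 and 48.6, whereas the Neurog3, enteroendocrine and enterocyte gates have medians between 2.86 and 7.26 with single cells far above.

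A few cells of the differentiated gates reached 32 per 10000. They were 5 and 4 enteroendocrine-gated cells in sets 1 and 2, with medians of 42191 and 51080 UMIs against 14450 and 16060 in the other cells of that gate. Their medians of the enteroendocrine markers were 92.4 and 265 per 10000 against 632 and 487 in the others, and of the crypt markers 5.69 and 5.28 against 0.883 and 0.958. In the enterocyte gate they were 22 cells (17.3%) and 17 cells (9.34%). These 22 and 17 cells had lower medians of the enterocyte markers (163 and 146 per 10000) than the other enterocyte-gated cells (385 and 465), and higher medians of the S phase list (9.72 and 13.1 against 2.58 and 2.34). A pair of cells caught in 1 droplet would also carry markers of both kinds. No doublet caller was run. An alternative without likely doublets left out cells in the top 5% of UMIs of their set and cells past 2 or more of the enteroendocrine, enterocyte, goblet, Paneth and tuft gates. It removed 2 of the 22 and 6 of the 17 high enterocyte-gated cells, and 2 of the 5 and 1 of the 4 high enteroendocrine-gated cells. Under that alternative the log2 ratio of the member sum, enterocyte over crypt gate, was -1.91 in place of -1.74 (set 1) and -2.96 in place of -2.28 (set 2).

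Gene by gene, 43 of 44 members were at least 2-fold lower in enteroendocrine-gated than in crypt-gated cells, in set 1 and again in set 2. Their median log2 ratios were -2.91 and -3.10. Of all genes, 10.6% were that much lower in set 1 and 12.7% in set 2, and of those at 10 CPM or more 11.1% and 13%. Ube2c was at 700 CPM in crypt-gated and 80.1 CPM in enteroendocrine-gated cells of set 1, and at 454 and 45.1 CPM in set 2. Mki67 was at 164 and 18.3 CPM, and at 155 and 17.3 CPM. On the log2(CPM + 1) scale the smallest of the 43 differences belonged to Dlgap5 in set 1 (30.9 against 8.50 CPM) and to Psrc1 in set 2 (20.4 against 6.18 CPM). Tmpo, at 187 against 52.8 CPM and 169 against 40.8 CPM, was near them in both sets, and as a plain ratio of CPM its difference in set 1 was smaller than that of Dlgap5. These ratios compare pooled cells of 1 library each, so they carry counting error only.

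Hjurp was the exception. In set 1 it was at 81.7 CPM (78.8 to 84.7) in crypt-gated cells and at 147 CPM (131 to 163) in enteroendocrine-gated cells. In set 2 it was at 76.5 CPM (73.1 to 80.0) and 91.1 CPM (81.0 to 102). Its intervals do not overlap in either set, and the log2 ratios were 0.84 and 0.25. The median log2 ratio of all genes was 0.35 and 0.26, so in set 2 Hjurp stood near the median gene. The share of all genes whose intervals lie apart between these gates was not computed. Its UMIs were spread over 107 of 145 enteroendocrine-gated cells in set 1 and 130 of 193 in set 2, and the 3 cells with the most held 9.15% and 8.47% of them. In the enteroendocrine gate Hjurp made up 15.4% and 14.9% of all member UMIs, against 1.33% and 1.55% in the crypt gate. In enterocyte-gated cells it was at 41.2 and 40.6 CPM. The annotation used (GENCODE M21) shows no gene overlapping Hjurp, and 0% of its 3′ words are shared with other transcripts.

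The share of cells with a UMI rises with depth, so shares were compared after thinning each cell to 2000 UMIs, which left out 265 shallower cells of set 1 and 77 of set 2. Ube2c would then be seen in 66.1% of crypt-gated cells of set 1 and 45.2% of set 2, and in 10.5% and 5.20% of enteroendocrine-gated cells. Without thinning these shares were 90.3% and 83.1%, and 44.8% and 26.4%, at median depths of 34932 and 31956 UMIs in crypt-gated and 14491 and 16281 in enteroendocrine-gated cells. Free RNA in droplets also gives UMIs in cells that do not express a gene. It was not measured and thinning does not remove it, and the enteroendocrine gate includes the 5 and 4 cells with high sums, so its shares are given beside the crypt shares and not as a measured background. Hjurp, after thinning, would be seen in 15.9% and 14.2% of crypt-gated and in 25.3% and 16.5% of enteroendocrine-gated cells. Tmpo would be seen in 30.7% and 27.5% against 10.0% and 7.49%.

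In enterocyte-gated cells, pooled with the 22 and 17 high ones, 43 of 44 members were at least 2-fold below crypt-gated cells in each set, with medians of -1.73 and -2.29, where 11.3% and 16.1% of all genes were (11.7% and 16% of those at 10 CPM or more). Hjurp was again the exception, with log2 ratios of -0.97 and -0.90, close to the 2-fold threshold. It was lost where 44 of 44 members were 2-fold lower, which was so in both sets without likely doublets and with higher gates, and in set 2 with no mitochondrial limit. The result depends on the mitochondrial limit. At 10% in place of 20%, 3 of these 43 members in set 1 and 14 in set 2 remained that much lower. Enterocyte-gated cells had a median mitochondrial share of 13.2% and 14.0%, against 9.37% and 9.27% in the crypt gate. Only 27 and 28 of them were at 10% or below, with pooled sums of 49.8 and 28.3 per 10000, while the 100 and 154 above 10% had 10.5 and 6.88. With all gates lowered, the enterocyte gate to 50 per 10000, 11 members of set 1 and 43 of set 2 were at least 2-fold lower.

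**Figure D3:**
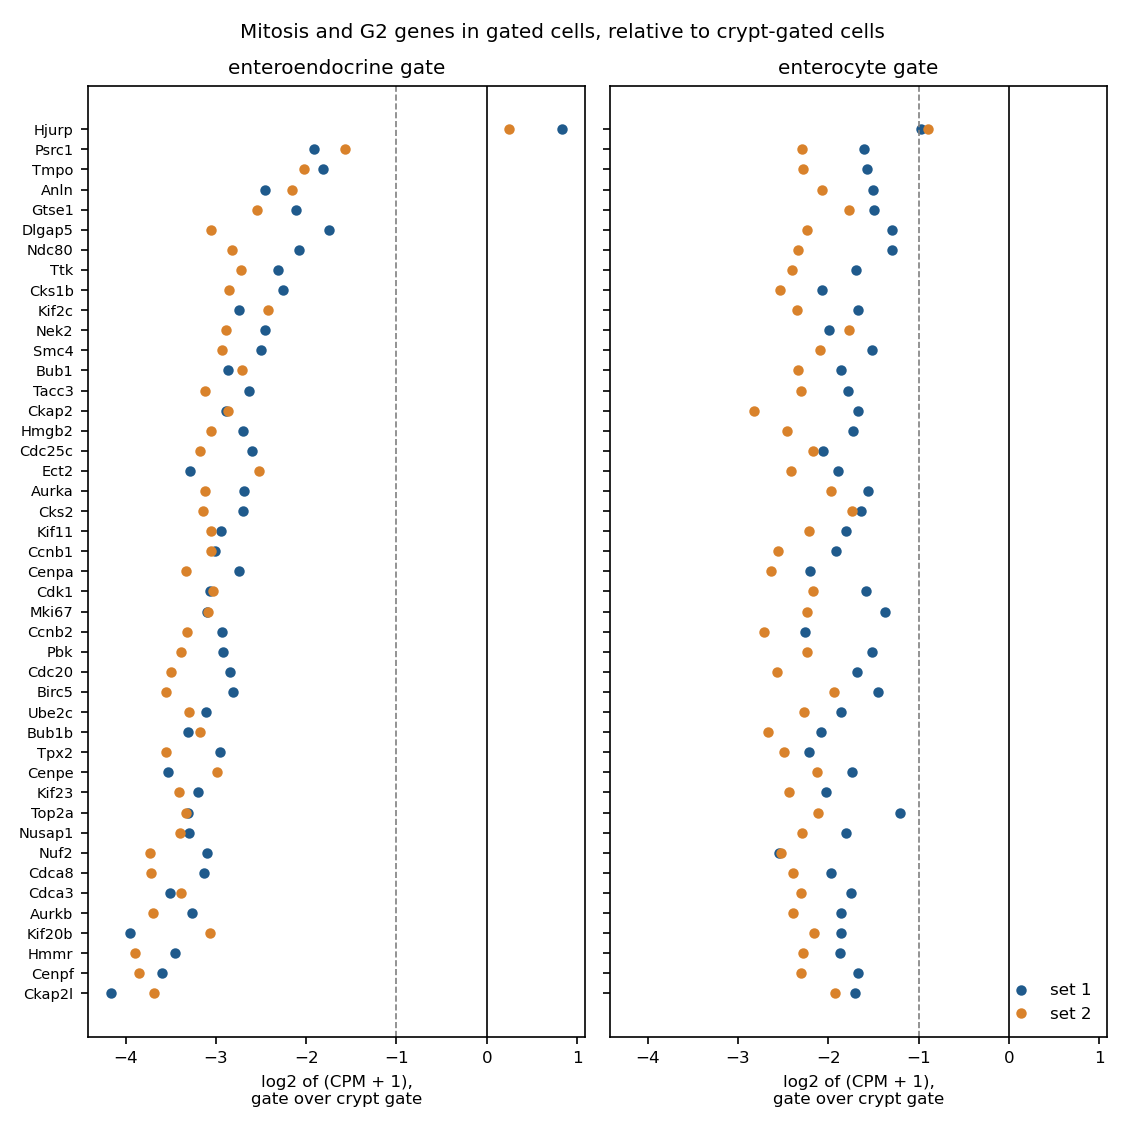
Log2 ratio of pooled CPM plus 1 of each gene in enteroendocrine-gated cells (left) and enterocyte-gated cells (right) over crypt-gated cells of the same set; the dashed line marks a 2-fold lower level. Hjurp is the only gene above the dashed line in both panels, just above it on the right, at 0.84 and 0.25 on the left and -0.97 and -0.90 on the right.

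Of the other lists, 50 of 53 other mitosis genes were at least 2-fold lower in enteroendocrine-gated cells of set 1 and 47 in set 2. Of 40 S phase genes, 30 and 37 were. The regulators were divided, with 9 lower and 6 higher in set 1 and 9 lower and 7 higher in set 2. The 6 of 36 and 7 of 37 tested that were higher are a smaller share than that of all genes, of which 28.6% in set 1 and 25.3% in set 2 were at least 2-fold higher in enteroendocrine-gated cells. Among those higher were the CDK inhibitors Cdkn1a, at 363 CPM in the enteroendocrine and 57.3 CPM in the crypt gate of set 1 (306 and 83.5 in set 2), and Cdkn1c, at 60.4 and 5.61 CPM (155 and 4.92 in set 2). In enterocyte-gated cells 46 and 48 of the other mitosis genes and 13 and 36 of the S phase genes were at least 2-fold lower.

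Within a gate the sets were compared again. The sets differ in their make-up: enteroendocrine- and enterocyte-gated cells were 145 and 127 of 2300 cells in set 1, and 193 and 182 of 1766 in set 2. The part of this make-up in the ratio over all cells was not tested. In crypt-gated cells 2 of 44 members, Ube2c (700 and 454 CPM) and Nusap1 (115 and 74.4 CPM), were at least 1.5-fold lower in set 2, where 1.99% of all genes were, and the median was -0.23. Top2a was at 181 and 189 CPM there. In enteroendocrine-gated cells 21 of the 41 members with 10 UMIs or more were that much lower and 2 higher, against 9.96% of all genes lower and 5.2% higher, with a median of -0.63. Of all member UMIs of that gate, the 5 and 4 cells with high sums held 31.1% in set 1 and 41.5% in set 2, and their part in this set difference was not tested. In enterocyte-gated cells 35 of 44 were, against 7.84% of all genes, with a median of -0.83. Pooled sums in that gate were 18.5 and 10.2 per 10000, above the medians over cells of 4.22 and 2.86, and cells at 32 per 10000 or more made up 17.3% of set 1 and 9.34% of set 2. These cells held 75.1% and 75.9% of the member UMIs of that gate, so its pooled values rest mostly on them, and their part in the set difference was not tested. The S phase list went the other way in the crypt gate, with 10 of 40 genes at least 1.5-fold higher in set 2 and a median of 0.36, against 2.27% of all genes higher and a median of all genes of 0.04. In the enterocyte and enteroendocrine gates, the only others compared gene by gene, it was lower in set 2 like the members. Of 40 S phase genes 27 were at least 1.5-fold lower and 0 higher in enterocyte-gated cells, with a median of -0.79. In enteroendocrine-gated cells 10 of 36 were lower and 0 higher, with a median of -0.25.

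Crypt-gated cells were ordered by their summed S phase list and divided into 5 groups of equal size. The pooled member sum was highest in 1 of the middle 3 groups in both sets, group 3 in set 1 and group 2 in set 2. From the lowest to the highest S group it was 56.4, 62.8, 68.3, 66.3 and 49.4 per 10000 in set 1, and 40.4, 61.4, 60.3, 47.4 and 30.7 in set 2. Along this order the median S list sum per 10000 went from 6.17 to 25.4 (set 1) and from 5.28 to 36.0 (set 2), and the lowest group had the lowest median depth of the 5 (27469 and 24208 UMIs). Of the members, 40 in set 1 and 42 in set 2 had their highest level in the middle 3 groups, 39 of them in both sets. Of all genes at 10 CPM or more in the crypt gate, which include the 44 members, 55% of 7012 in set 1 and 51.8% of 7172 in set 2 did.

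At the ends of that order the members differed from each other. At least 1.5-fold lower in the highest than in the lowest S group were 9 members in set 1 and 19 in set 2, and the 9 of set 1 were all among the 19. Of all genes at 10 CPM or more in the crypt gate 1.8% and 3.12% were that much lower. These 9 were Cdc20, Ccnb2, Cenpa, Ube2c, Ccnb1, Cdc25c, Nek2, Ckap2 and Cenpf. Cdc20 was at 162 CPM in the lowest and 45.6 CPM in the highest S group of set 1, and at 130 and 22.6 CPM in set 2. Ccnb2 was at 147 and 49.1 CPM, and at 121 and 15.7 CPM. At least 1.5-fold higher were 8 and 6 members, against 5.59% and 9.33% of those genes. Of these members Pbk, Top2a, Aurkb and Tmpo were so in both sets. Top2a was at 111 CPM in the lowest and 226 CPM in the highest S group of set 1, and at 69.0 and 230 CPM in set 2. Pbk was at 48.2 and 105 CPM, and at 25.5 and 80.5 CPM. The groups were made from the same cells and totals as the member levels.

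**Figure D4:**
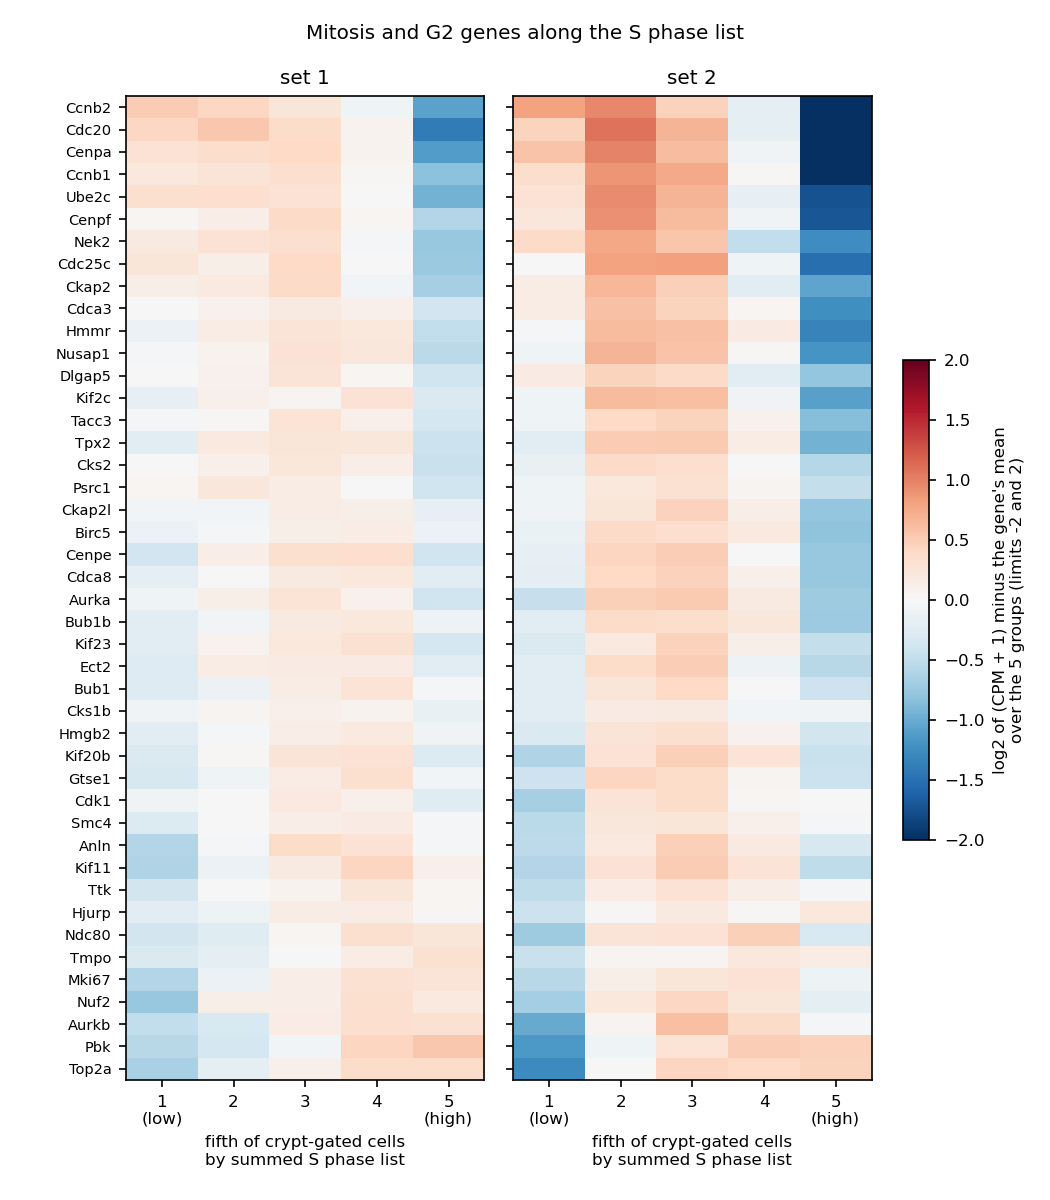
Level of each gene in 5 equal groups of crypt-gated cells ordered by their summed S phase list, as log2 of CPM plus 1 minus the gene's mean over the groups, for set 1 (left) and set 2 (right); red is above and blue below that mean, and the colour scale ends at -2 and 2. Ccnb2, Cdc20 and Cenpa at the top are lowest in the highest S group, and Pbk and Top2a at the bottom are lowest in the lowest.

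Over crypt-gated cells, the 946 pairs of members had a median Pearson r of 0.23 in set 1 and 0.33 in set 2, on log levels per cell. These cells share library, depth and total, and r is given as a description. The highest pair was Birc5 with Cdca3 in set 1 (0.55) and Ube2c with Cenpa in set 2 (0.72). With the sum of the other members, Hmgb2 had an r of 0.60 and 0.82 and Ube2c of 0.59 and 0.76. Psrc1 had the lowest r in both sets (0.11 and 0.21), and Hjurp (0.20 and 0.40), Ttk (0.20 and 0.35), Gtse1 (0.20 and 0.33) and Ndc80 (0.22 and 0.32) were among the next. Psrc1, Gtse1, Ttk and Ndc80 are among the least abundant members, with means of the sets from 14.1 to 14.9 CPM. Hjurp had a mean of 74.2 CPM, and Hmgb2 and Ube2c are the most abundant (884 and 468 CPM). How far low counts set these r was not tested. With the S phase list, Top2a had an r of 0.24 and 0.31 and Ube2c of -0.18 and -0.18. The member sum itself had an r of 0.07 and 0.11 with the S list, and of 0.30 and 0.22 with the log of the UMIs per cell.

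Among 9406 other genes with a UMI in at least 10% of the 1961 crypt-gated cells, the 15 with the highest r with the member sum were ranked. They began with Tubb4b (0.59), a tubulin, Arl6ip1 (0.57), Plk1 (0.55), Ube2s (0.55), an elongating partner of Ube2c, and Tubb5 (0.55). The others were Smc2, Ccna2, Ptma, Prc1, Racgap1, Tuba1c, Nucks1, H2afx, Tuba1b and H2afz, down to an r of 0.48. This r was taken over the crypt-gated cells of both sets together, so it holds the difference between the sets as well as that among cells. Within set 1 alone the 15 genes had an r from 0.39 to 0.52 and 14 of them were again among the first 15, and within set 2 alone the r was 0.50 to 0.69, with 13 again among the first 15. Of these 15 genes 10 were in the list of other mitosis genes. Of the first 50, 27 were in that list, 0 in the S phase list and 1 in the list of regulators.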

How the data were processed

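Droplet 3′ RNA libraries of mouse small intestinal organoids were deposited as whole-number UMI counts per gene and barcode, with no normalization. Per the submitters' processing notes, Cell Ranger 3.1.0, STAR 2.7.3a and bcl2fastq 2.20.0 were used; the genome build is not given in the sources used here. UMIs count each captured transcript end once, so levels were not divided by gene length. Whether counting used strand is not stated; of the members, 14 overlap a gene on the opposite strand and 9 on the same strand (GENCODE M21).

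The UMIs of all cells of a set or gate were added up and divided by their total (CPM), in Python 3.11.15 with numpy 2.4.6, scipy 1.17.1 and pandas 2.3.3. Log2 ratios used a pseudocount of 1 CPM, which understates ratios of low genes. Intervals are exact Poisson or Clopper-Pearson; those of a median over cells are order-statistic intervals. Genes with at least 10 UMIs were counted as past a fold of 1.5 between sets or 2 between gates. Thinned shares are hypergeometric expectations. Gate thresholds (50 enteroendocrine, 100 enterocyte, 40 goblet, 10 Paneth, 2 tuft, 10 revival-like) were set after the marker distributions were seen, and cells past several of these gates were kept apart. Cells past the Neurog3 gate and none of the enterocyte, goblet, Paneth, tuft and revival-like gates formed their own class, also where they passed the enteroendocrine gate. Doublets were not removed in the main results. Older symbols of 5 list genes were matched through RefSeq synonyms. Named were, within the members, the 3 highest, the 3 lowest, those past 1.5-fold and the extremes of each role; genes outside came from the fixed lists and the 15 most like the sum; other names were chosen after their values were seen. The members and lists were chosen with earlier results of these data known. The calculation of the ratio was checked on simulated counts with known folds, which is no test of these data. Protein sequences were not used here. Alternatives covered cell filters, scaling, doublets, gates, pseudocount, minimum and thinning.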

Additional observations from a re-analysis of the deposited data

Results flagged for a closer look

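Barcodes left out for over 20% mitochondrial UMIs also carried members. With above 20% to 50%, 2467 barcodes of set 1 had 3522 CPM and 1886 of set 2 had 3277 CPM, and above 50%, 3643 barcodes of set 1 had 1613 CPM and 1785 of set 2 had 1773 CPM. These values were singled out because the comparisons above do not use these barcodes and the signal is above the limit that a count of 0 allows. In CPM of the UMIs without the mitochondrial ones, they came to 5502, 4969, 5085 and 4926, beside 5728 and 4147 in the kept cells. On that scale set 2 was 1.38-fold lower than set 1 in kept cells, and the sets were closer in the other barcodes.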

How the results depend on the processing

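Under 14 alternatives the member sum stayed lower in set 2, and in enteroendocrine- and enterocyte-gated than in crypt-gated cells, wherever these were recomputed; of 146 values, 79 stayed within the counting interval or tolerance of the main value, 67 moved and 0 changed sign. The causes were not tested. The levels of sets 1 and 2 were 5440 and 4047 CPM at a 10% mitochondrial limit, 4191 and 3389 with no limit, 5195 (set 1) at 5000 UMIs and 2000 genes, 5728 and 4147 scaled without mitochondrial UMIs, and 5258 and 3672 without 325 likely doublets. In that order the log2 ratio of the sum moved to -0.43, -0.31 and, without doublets, -0.52, and to -0.48 as the mean over cells and -0.48 without Hmgb2, Tmpo, Smc4 and Cks1b. With no mitochondrial limit the median was -0.21 and 1 member passed 1.5-fold; 3 did with a pseudocount of 10 CPM and 9 without doublets. Crypt-gated medians of set 1 were 62.7 (10% limit), 39.9 (no limit), 62.5 (deeper cells) and 66.6 (no mitochondrial scaling), and of set 2 32.2 (no limit), 53.4 (scaling), 44.7 (lower gates) and 54.3 (higher gates). Enterocyte-gated medians were 31.7 and 5.10 at the 10% limit, 5.41 and 3.43 by scaling and 17.9 and 3.22 with lower gates. Enteroendocrine over crypt, the log2 of the sum was -2.50 in set 1 (no limit), -3.03 (doublets), -2.11 (lower gates) and -2.84 (higher gates), and in set 2 -3.08 (10% limit), -2.88, -3.14, -2.07 and -3.17; the same 43 members were 2-fold lower in each. Enterocyte over crypt it was -0.34 and -0.80 at the 10% limit, -1.83 and -2.38 with none, -1.61 and -2.12 by scaling, -1.91 and -2.96 without doublets, -0.87 and -1.60 with lower and -2.42 and -3.67 with higher gates; 3 and 14 members were 2-fold lower at the 10% limit and 11 (set 1) with lower gates, and 44 of 44 in both sets without doublets and with higher gates. Ube2c shares at 5000 UMIs were 87.5% and 64.9% (crypt) and 20.5% and 11.1% (enteroendocrine), and unthinned 90.3%, 83.1%, 44.8% and 26.4%, so depth limits shares. No paired analysis was possible because both samples hold 1 matrix and the result comes from no test.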

Other observations

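Gates with few cells gave the following values. Revival-like gated cells, past 10 per 10000 of Anxa1, Anxa3, S100a6, S100a11, Clu, Ly6a, Krt7 and Il33, numbered 19 in set 1 and 33 in set 2. Their median member sums were 7.92 (interval of the median 4.89 to 33.3) and 16.1 (3.93 to 44.5) per 10000, with upper quartiles of 31.9 and 51.3. Goblet-gated cells numbered 21 and 6, with medians of 31.1 (6.92 to 41.4) and 48.6 (3.12 to 98.6). The intervals of both gates are wide, and those of the sets overlap.

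Among the other CDK inhibitors of the regulator list, 3 were at least 2-fold higher in enteroendocrine-gated than in crypt-gated cells of both sets, counted on the log2(CPM + 1) scale among genes with 10 UMIs or more (28.6% and 25.3% of all genes were). These were Cdkn2b, at 47.4 and 2.54 CPM in set 1 and 47.3 and 4.02 CPM in set 2, and Cdkn1b, at 148 and 51.5 CPM and at 91.4 and 41.9 CPM, and Cdkn2d, at 26.8 and 9.77 CPM and at 23.5 and 8.86 CPM. Cdkn2c lay the other way, at 4.03 and 15.7 CPM in set 1 and 8.65 and 16.5 CPM in set 2, and Cdkn2a, with fewer than 10 UMIs in set 1 and so not counted there, was at 0.894 CPM against 0.0558 CPM and at 2.47 CPM against 0.276 CPM. Cdkn2b was higher in enterocyte-gated cells as well, at 43.3 and 57.6 CPM, whereas Cdkn1b was at 17.9 and 15.8 CPM there.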
